A study of Homo sapiens with 48 samples.

Results

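The genes described are CYR61, DCN, ECM1, SPARC and TGFBI, which encode secreted proteins of the extracellular matrix. They were chosen by name, with earlier results of these data known. They are 5 of the 327 targeted genes that each table of a pooled CRISPR knockout screen holds. The screen was made in 3 human squamous carcinoma lines that stably express the Cas9 nuclease: A431 (A-431), which comes from an epidermoid carcinoma, CAL27, from a carcinoma of the tongue, and SCC13 (SCC-13), from a carcinoma of the skin. The groups are 8 A431 tumors and 10 CAL27 tumors grown in SHO mice, 16 SCC13 tumors grown in NOD.Cg-Prkdcscid Il2rgtm1Wjl/SzJ mice, 2 A431 cultures and 2 CAL27 cultures. Tumors were taken about 2 months after cells were injected with Matrigel into the flanks, cultures were kept for 3 weeks, and each table is set against 2 samples of initial infected cells. All groups carry Cas9 and the guide library, and the hosts are immunodeficient.

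Matricellular proteins are secreted into the matrix and act on cells, by binding cell surface receptors, growth factors and other matrix proteins, rather than as structural scaffold. Fibroblasts and other stromal cells are known as a main source of several of them in tumors, decorin and SPARC among them. A guide removes a gene only in the human cell that carries it. Neighbouring cells with other guides, and the cells of the mouse host, keep their own copies of these genes, and a secreted protein can reach a cell that does not make it. Expression of the genes in these cells, and the amount of each protein, were not measured.

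A value is the log fold change of a gene's knockouts in 1 tumor or culture over the initial cells. It is given in log units, since the sources used here give no log base. Negative values are read as loss of the knockout. Each table has 1 value column per tumor or culture, with no replicate number. The deposited values are relative to the non-targeting guides. Unless stated otherwise they are given here minus the median of the 327 genes in the same column, so that 0 is the median gene. A call is a limma adjusted p below 0.05, adjusted over all 327 genes by the Benjamini-Hochberg method. All 5 genes had a value in all 38 columns, and no filter on low values was applied.

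The columns differed in scale. The SD over genes lay between 0.42 and 1.34 log units in the A431, 1.09 and 2.23 in the CAL27 and 1.89 and 2.87 in the SCC13 tumors. It was 0.50 and 0.51 for the A431 cultures, and for those of CAL27 0.57 and 0.59. Value column 3 of the SCC13 tumors stood apart, with its median gene at 0.53 relative to the non-targeting guides, where the other SCC13 columns had theirs below 0. In SCC13 tumors, between 8 and 145 genes per column differed from another column of the table by an amount that 4 or more genes shared to 6 decimals. Such values are called bound values here. DCN had them in 4 columns, ECM1, SPARC and TGFBI in 2 each and CYR61 in 0.

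Of the 5 genes, CYR61 was called higher in CAL27 and SCC13 tumors and DCN was called lower in A431 tumors. No other call was made for the 5 in the main limma fits of the 11 comparisons. These fits used median-centred values and 1 spread per gene, and other settings made further calls, given below. Of all genes, 19.9% were called in either direction in A431, 40.7% in CAL27 and 47.4% in SCC13 tumors. CYR61 knockouts had the highest mean of the 5 in tumors of all 3 lines. DCN knockouts had the lowest mean in A431 and CAL27 tumors and the highest in both cultures. ECM1, SPARC and TGFBI knockouts were on average within 0.57 log units of the median gene in all 5 tables. Among the 327 genes their SD between tumors ranked from the 22nd smallest, for SPARC in CAL27, to the 320th, for TGFBI in CAL27.

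**Figure D1:**
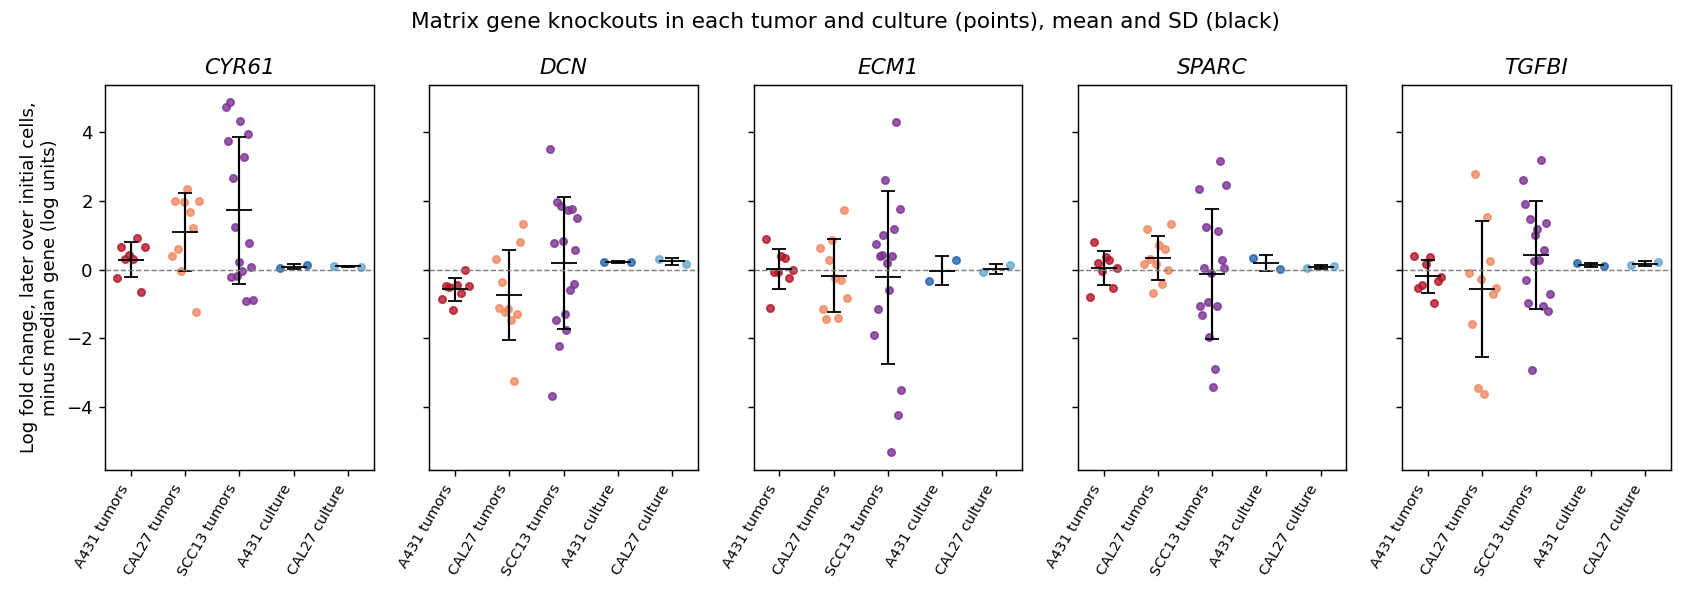
Log fold change over the initial cells, minus the median gene of the column (log units), of 5 matrix gene knockouts in each tumor or culture (points), with the mean and SD (black). CYR61 lay above 0 in 25 of 34 tumors, DCN in 12 of 34, and the spread between tumors was widest in SCC13 for each gene but TGFBI, for which it was widest in CAL27.

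CYR61 (now named CCN1) encodes a matricellular protein of the CCN family, which binds integrins and heparan sulfate proteoglycans, and is known as an immediate early gene and a target of YAP. In the 16 SCC13 tumors its knockout stood at -0.93 log units at the lowest, 1.01 at the median and 4.85 at the highest. In the 10 CAL27 tumors the lowest, median and highest values were -1.23, 1.43 and 2.32, and in the 8 A431 tumors -0.66, 0.37 and 0.91. The A431 cultures stood at 0.04 and 0.13 and the CAL27 cultures at 0.11 and 0.08. CYR61 was thus above the median gene in 11 of 16 SCC13 tumors, 8 of 10 CAL27 tumors, 6 of 8 A431 tumors and all 4 cultures. The value of 0.04 in A431 culture column 1 was shared exactly by 9 genes of that column, and without it the culture rests on the value of 0.13.

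The mean of CYR61 was 1.72 ± 2.13 log units in SCC13 tumors (SD, n = 16, limma adjusted p = 0.00163) and 1.08 ± 1.14 in CAL27 tumors (SD, n = 10, limma adjusted p = 0.018). It was 0.29 ± 0.51 in A431 tumors (SD, n = 8, limma adjusted p = 0.355) and was not called there. Among all 327 genes 23.5% were called higher in SCC13 tumors, 18.7% in CAL27 tumors and 7.95% in A431 tumors, so higher calls were common in both tables where CYR61 had one. An exact sign-flip permutation test over the tumors, two-sided, gave p = 0.00763 in SCC13 (adjusted p = 0.0211) and p = 0.0234 in CAL27 (adjusted p = 0.0594). Without value column 3 the SCC13 mean was 1.51 (limma adjusted p = 0.00715), and no left-out column ended the call in either line.

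The higher calls of CYR61 held against the median gene and not against the non-targeting guides. In the deposited values the mean of CYR61 was 0.10 ± 2.31 log units in SCC13 tumors (limma adjusted p = 0.863), 0.27 ± 1.00 in CAL27 tumors (limma adjusted p = 0.517) and 0.02 ± 0.58 in A431 tumors (limma adjusted p = 0.968). It lay above the non-targeting guides in 7 of 16 SCC13, 7 of 10 CAL27 and 5 of 8 A431 tumors. In the same values the other 4 genes had negative means in all 5 tables. Lower calls relative to the non-targeting guides made up 22.3% of all genes in A431, 50.2% in CAL27 and 67.3% in SCC13 tumors. CYR61 was the 1 of the 5 not called lower on that scale in SCC13 tumors, where ECM1 stood at -1.85 ± 2.69, SPARC at -1.75 ± 1.94 and TGFBI at -1.20 ± 1.59 (SD, n = 16; limma adjusted p of 0.002, 0.0015 and 0.0214). In CAL27 tumors ECM1 (-0.998 ± 1.15, limma adjusted p = 0.0266), TGFBI (-1.38 ± 2.12, limma adjusted p = 0.0346) and DCN were called lower.

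**Figure D2:**
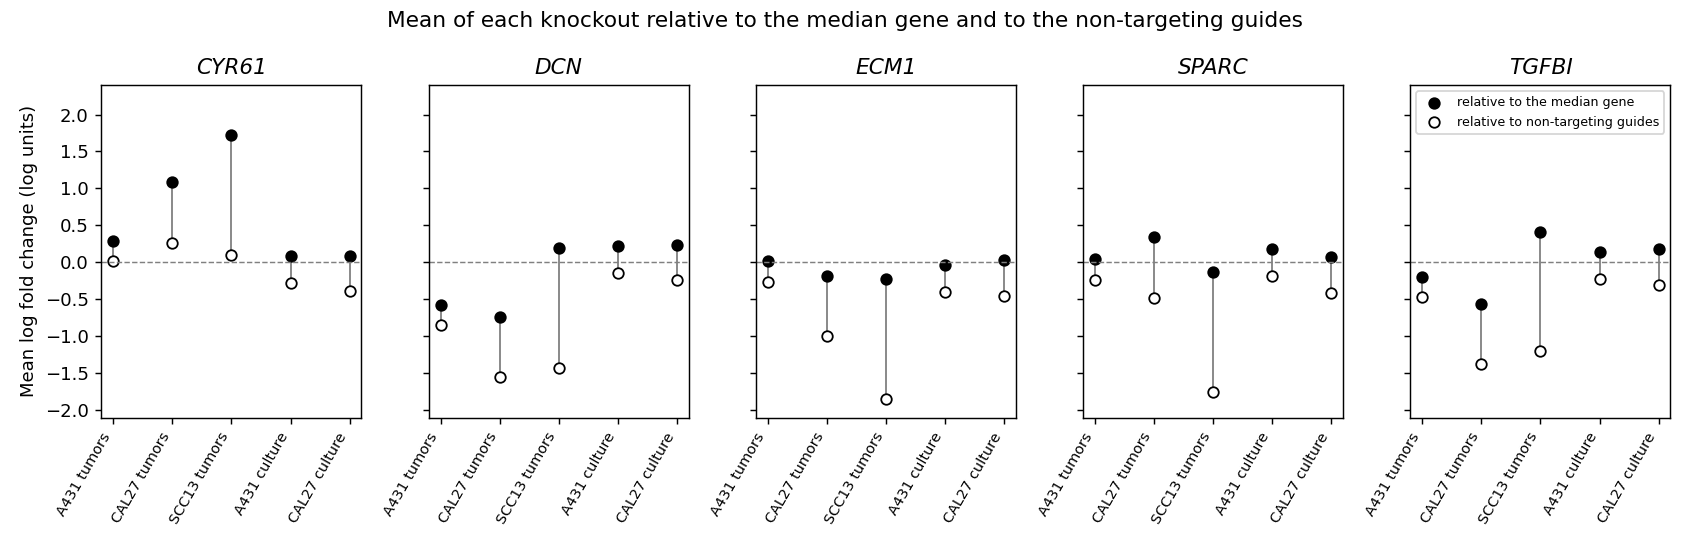
Mean log fold change (log units) of each knockout in the 5 tables, relative to the median gene (filled) and to the non-targeting guides (open). The open points of CYR61 in tumors lie at 0.02, 0.27 and 0.10 for A431, CAL27 and SCC13, while the open points of the other 4 genes all lie below 0.

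DCN encodes decorin, a small leucine-rich proteoglycan that binds collagen fibrils and TGF-beta and is known to bind the EGF receptor. In A431 tumors its knockout stood at -1.16 log units at the lowest, -0.49 at the median and 0 at the highest. That highest value is exactly 0 because DCN was itself the median gene of value column 7. The A431 cultures stood at 0.23 and 0.21. No A431 tumor reached the level of either culture, and the groups did not overlap, as was so for 9.17% of all genes.

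In A431 tumors the mean of DCN was -0.57 ± 0.34 log units (SD, n = 8), below the median gene in 7 of 8 tumors (limma adjusted p = 0.043). Its SD was the 17th smallest of 327, against a median SD of 0.62. Lower calls made up 11.9% of all genes in this table. The call was close to the threshold. It was lost without value column 1, 2, 3, 4, 5, 6 or 8, where the adjusted p lay between 0.0608 and 0.0885, and held without column 7 at adjusted p = 0.0348. Over all genes the calls also fell, from 65 to between 39 and 53 with 1 column left out. The exact sign-flip permutation test gave p = 0.0156, two-sided, with adjusted p = 0.0798, and 0 genes passed that adjustment in this table. Relative to the non-targeting guides DCN lay below 0 in 8 of 8 A431 tumors, with a mean of -0.85 ± 0.41 (limma adjusted p = 0.00691). On that scale 22.3% of all genes were called lower in these tumors.

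In CAL27 tumors DCN stood at -3.23 log units at the lowest, -1.13 at the median and 1.33 at the highest, with 7 of 10 tumors below the median gene. The CAL27 cultures stood at 0.31 and 0.17, inside the range of the tumors. The tumor mean was -0.74 ± 1.31 (SD, n = 10, limma adjusted p = 0.13), where 22% of genes were called lower. Without value column 10 it was -0.97 (limma adjusted p = 0.0495), and without column 7 -0.46 (limma adjusted p = 0.322). In SCC13 tumors DCN ranged from -3.67 through a median of 0.68 to 3.51, with a mean of 0.19 ± 1.91 (SD, n = 16, adjusted p = 0.766). It lay above the median gene in 9 of 16 tumors. In the deposited values DCN was called lower in both of these lines, as were 50.2% of all genes in CAL27 and 67.3% in SCC13 tumors. It stood at -1.55 ± 1.43 in CAL27 tumors (limma adjusted p = 0.0037) and -1.43 ± 2.04 in SCC13 tumors (limma adjusted p = 0.00965). Of the SCC13 tumors 12 of 16 were below the non-targeting guides and 4 were above. The median-centred mean in SCC13 tumors moved to 0.79 (adjusted p = 0.204 by limma) without the 4 bound values. These stood at -3.67, 0.78, -2.21 and -1.30, so mostly low values were left out. No direction of DCN relative to the median gene was called in SCC13 tumors, where lower calls made up 23.9% of all genes.

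TGFBI encodes a secreted protein that TGF-beta induces and that binds collagens and integrins. Its knockout was the most uneven of the 5 in CAL27 tumors. The 10 tumors stood at -3.60 log units at the lowest, -0.40 at the median and 2.77 at the highest, against 0.13 and 0.22 in the CAL27 cultures. The SD of 1.97 ranked 320th of 327 from the smallest, where the median gene had 1.09. Values below -3 and above 2 thus occurred in tumors of the same table, and the mean of -0.57 was not called (limma adjusted p = 0.378). It was -0.94 without value column 3, -0.25 without column 4 and -0.23 without column 6, none of them called. In A431 tumors TGFBI ranged from -0.96 to 0.40 with a mean of -0.20 ± 0.47 (SD, n = 8, adjusted p = 0.527 by limma), against 0.18 and 0.10 in the A431 cultures. In SCC13 tumors it ranged from -2.91 to 3.17 with a mean of 0.41 ± 1.57 (SD, n = 16, adjusted p = 0.49 by limma). Without the 2 bound values, -2.91 and -1.21, the SCC13 mean was 0.77 (adjusted p = 0.15 by limma).

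SPARC encodes osteonectin, a collagen-binding and counter-adhesive matricellular glycoprotein. No mean of its knockout was called on the median-centred scale. A431 tumors ranged from -0.78 to 0.79 log units with a mean of 0.04 ± 0.50 (SD, n = 8), against 0.34 and 0.02 in the cultures. CAL27 tumors ranged from -0.67 to 1.32 with a mean of 0.34 ± 0.64 (SD, n = 10), against 0.03 and 0.11 in the cultures. SPARC had the smallest SD of the 5 in CAL27 tumors, the 22nd smallest of 327 genes. SCC13 tumors ranged from -3.41 to 3.14 with a mean of -0.13 ± 1.88 (SD, n = 16), 8 tumors above the median gene and 8 below. Without the 2 bound values, -1.33 and -3.41, the SCC13 mean was 0.19. The limma adjusted p was 0.898, 0.377 and 0.847 in A431, CAL27 and SCC13 tumors.

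ECM1 encodes extracellular matrix protein 1, a secreted glycoprotein of skin and other tissues that binds matrix components and whose loss causes lipoid proteinosis. Its mean was 0.01 ± 0.57 log units in A431 tumors (SD, n = 8), -0.18 ± 1.06 in CAL27 tumors (SD, n = 10) and -0.23 ± 2.51 in SCC13 tumors (SD, n = 16), with limma adjusted p of 0.968, 0.717 and 0.741. The 16 SCC13 values ran from -5.30 through a median of 0.39 to 4.29. In value columns 10, 14 and 16 ECM1 was the 2nd, 3rd and 6th lowest gene of 327, at -5.30, -4.21 and -3.50, while 10 of 16 tumors were above the median gene. Of these 3 values that in column 14 was a bound value. Without both bound values, -1.15 and -4.21, the mean was 0.12 (limma adjusted p = 0.901). Its SD there ranked 315th of 327 from the smallest. The 2 A431 cultures also differed, at -0.34 and 0.27, and the CAL27 cultures stood at -0.08 and 0.13.

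**Figure D3:**
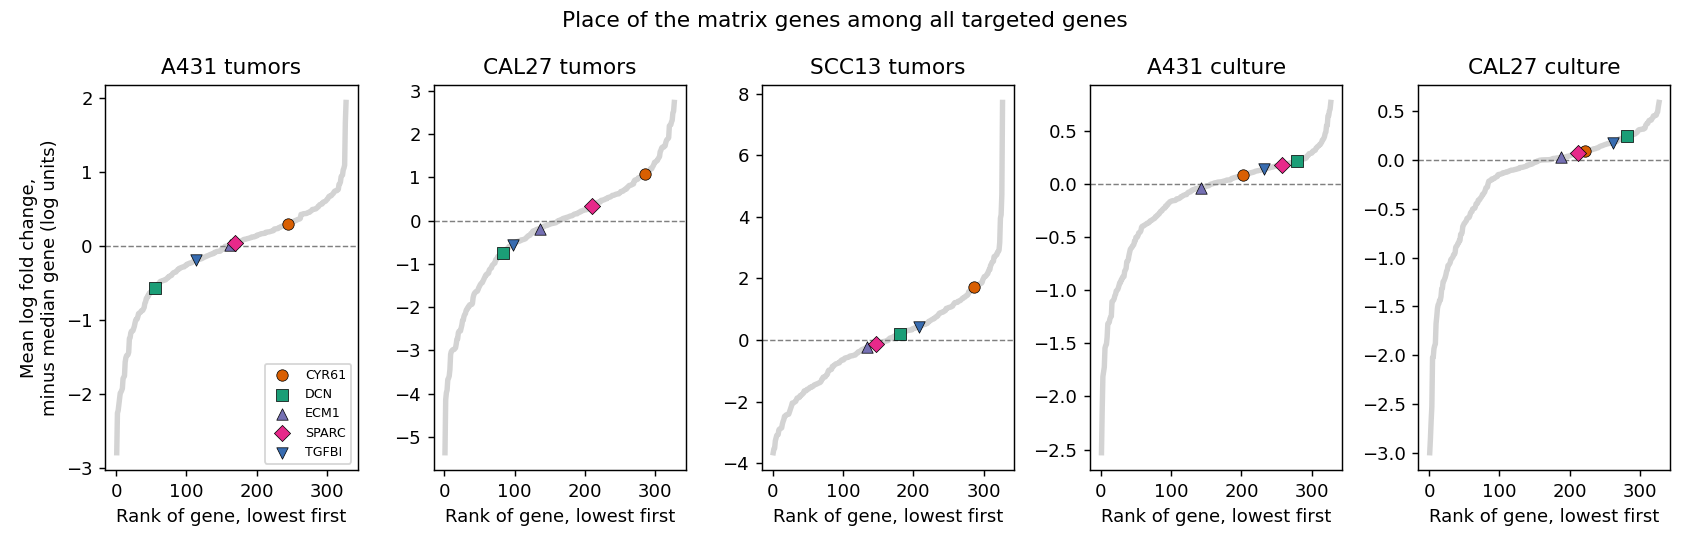
Mean log fold change minus the median gene (log units) of all 327 genes in each table, in order of the mean (grey line), with the 5 matrix genes marked; the vertical scale differs between panels. CYR61 ranks 244th, 285th and 286th from the lowest in A431, CAL27 and SCC13 tumors, and DCN 56th, 84th and 181st.

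In culture 0 of the 5 genes were called in either line by limma, where 13.5% of all genes were called in A431 and 23.5% in CAL27. At an unadjusted limma p under 0.05 it was DCN alone, in CAL27 (p = 0.0434, adjusted p = 0.115), where 38.5% of all genes in CAL27 and 28.7% in A431 were under it. The 5 genes were above the median gene in 18 of 20 values from cultures, and below the non-targeting guides in 20 of 20, as were 298 to 322 of the 327 genes in each culture. DCN had the highest mean, 0.22 ± 0.02 log units in A431 (SD, n = 2, limma adjusted p = 0.268) and 0.24 ± 0.10 in CAL27 (SD, n = 2, limma adjusted p = 0.115). TGFBI stood at 0.14 ± 0.05 and 0.18 ± 0.07, SPARC at 0.18 ± 0.23 and 0.07 ± 0.06, CYR61 at 0.09 ± 0.06 and 0.09 ± 0.02 and ECM1 at -0.03 ± 0.43 and 0.03 ± 0.14 in A431 and CAL27 (SD, n = 2 each). Relative to the non-targeting guides all 5 were called lower in CAL27 culture, with means from -0.45 for ECM1 to -0.24 for DCN, and so were 293 of the 327 genes, 89.6%.

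Tumors were set against cultures of the same line. Besides the animal, these differ in time (about 2 months against 3 weeks), in Matrigel and in the initial samples used. Such factors cannot be told apart here. DCN differed by -0.79 log units in A431 (SE 0.37, 95% interval -1.57 to -0.01) and by -0.98 in CAL27 (SE 0.88, -2.82 to 0.86). All 8 A431 tumors and 7 of 10 CAL27 tumors were below the culture mean. CYR61 differed by 0.20 in A431 (SE 0.42, -0.70 to 1.11) and by 0.99 in CAL27 (SE 0.81, -0.71 to 2.69), with 6 of 8 and 8 of 10 tumors above the culture mean. TGFBI differed by -0.33 in A431 and -0.74 in CAL27, SPARC by -0.14 and 0.27, and ECM1 by 0.05 and -0.21, each by less than its SE.

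With 1 spread for both settings, limma called 0 of the 5 and 0% of all genes in either line. The spreads were unlike, however. The median SD of the genes was 0.62 log units in tumors and 0.13 in cultures of A431, and 1.09 and 0.09 in CAL27. The absence of calls in this fit therefore does not show that tumors and cultures were alike. At an unadjusted p under 0.05 there were 20 genes in A431, DCN among them (p = 0.0477, adjusted p = 0.779), and 30 genes in CAL27. With an own spread per setting 40 genes were called in A431, 12.2% of all, and 107 in CAL27, 32.7%. DCN was then called in A431 (adjusted p = 0.0201 with that spread in limma) and CYR61 in CAL27 (adjusted p = 0.0362), while DCN in CAL27 had adjusted p = 0.055. The cultures' own spread rests on 2 cultures per line. An exact permutation of the column labels, two-sided, gave DCN in A431 p = 0.0222, the smallest that 8 tumors and 2 cultures allow, and adjusted p = 0.519. DCN was 1 of 30 genes, 9.17% of all, whose A431 tumors and cultures did not overlap. In CAL27 none of the 5 genes was among the 8.56% without overlap. The difference between the lines in tumors minus culture was tested in 1 fit of the 4 tables, and its limma adjusted p was 1.00 for each of the 5. Of all 327 genes 0 were called by this test. Its SE ran from 0.76 log units for SPARC to 1.39 for TGFBI, so it does not show that the lines were alike.

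**Figure D4:**
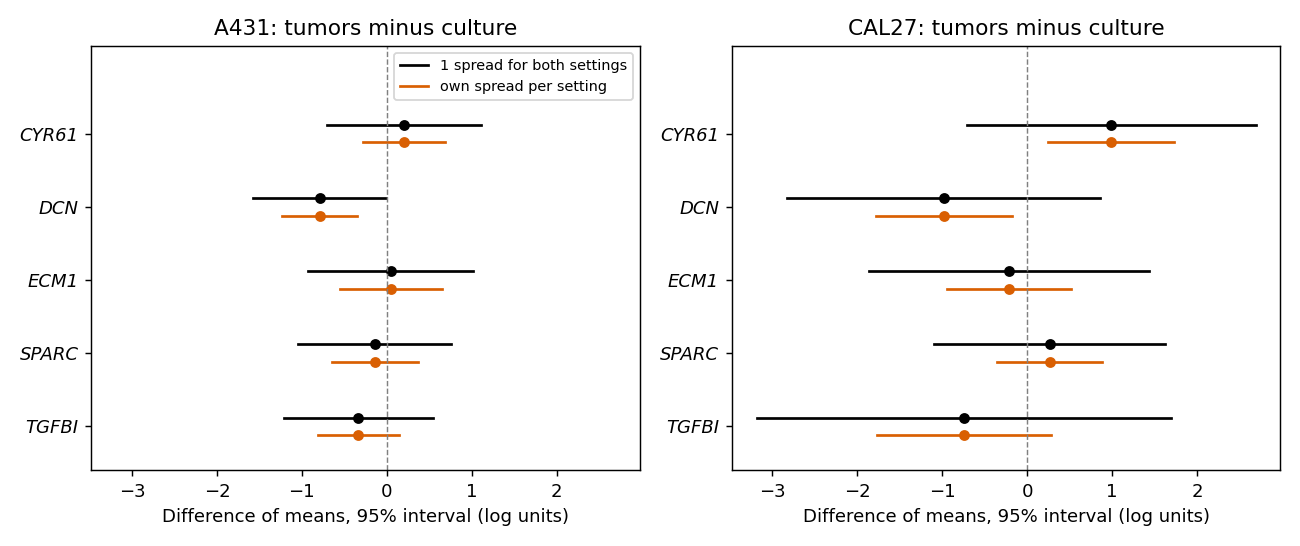
Mean of tumors minus mean of cultures (log units) with its 95% interval, from the fit with 1 spread for both settings (black) and with an own spread per setting (orange), for A431 (left) and CAL27 (right). Intervals are not adjusted for the number of genes; that of DCN in A431 ends below 0 in both fits, and in CAL27 those of CYR61 and DCN exclude 0 with an own spread alone.

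Tumors of the 3 lines were compared in 1 fit. The SCC13 tumors grew in another mouse strain than the A431 and CAL27 tumors. Line and host strain therefore cannot be told apart in any contrast with SCC13. For CYR61 the difference was 1.43 log units for SCC13 minus A431 tumors (SE 0.66, limma adjusted p = 0.127), 0.64 for SCC13 minus CAL27 (SE 0.62, adjusted p = 0.489) and 0.79 for CAL27 minus A431 (SE 0.73, adjusted p = 0.705). With an own spread per line the first of these had adjusted p = 0.0259 in limma, with 29.7% of genes called, and a permutation of the column labels gave adjusted p = 0.24. The order depended on the scale. By rank within the column CYR61 had a median rank of 217.5 in SCC13, 276 in CAL27 and 244 in A431 tumors out of 327. On average SCC13 minus CAL27 tumors was -3.30 points of rank percentile and SCC13 minus A431 tumors 5.10 points, neither of them called.

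For DCN the difference was 0.76 log units for SCC13 minus A431 tumors (SE 0.64, limma adjusted p = 0.441), 0.93 for SCC13 minus CAL27 (SE 0.60, adjusted p = 0.285) and -0.17 for CAL27 minus A431 (SE 0.70, adjusted p = 0.964). By rank percentile the first difference was 31.7 points (limma adjusted p = 0.0265), where 12.5% of genes were called. For TGFBI SCC13 minus CAL27 tumors was 0.98 (SE 0.60, adjusted p = 0.26). For ECM1 and SPARC the 3 contrasts lay between -0.47 and 0.30. On the median-centred scale with 1 spread none of the 5 genes was called, where 21.1%, 17.7% and 3.36% of all genes were called for SCC13 against A431, SCC13 against CAL27 and CAL27 against A431. The 1 unadjusted limma p under 0.05 among these was that of CYR61 for SCC13 against A431 (p = 0.0345), where 30.3% of all genes were under it. The moderated F test over the 3 lines gave adjusted p of 0.21 for CYR61 and 0.388 for DCN, and 26.6% of genes passed it. In culture, CAL27 and A431 differed by at most 0.11 log units in any of the 5 genes, with 3.06% of all genes called.

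The other matrix genes of the library were counted from 3 lists, which were chosen with earlier results of these data known. Their counts are therefore descriptions, and no excess over all genes was tested. Fell and rose mean called lower and called higher than the median gene. Relative to the non-targeting guides, higher calls over all genes numbered 7 in A431, 18 in CAL27 and 13 in SCC13 tumors. In culture they numbered 1 in A431 and 0 in CAL27. The lists are given relative to the median gene alone, so a rise here need not be one relative to those guides. Of 18 matrix and matrix-associated secreted proteins, 2 fell and 0 rose in A431 tumors, 1 fell and 2 rose in CAL27 tumors and 2 fell and 3 rose in SCC13 tumors. Among all genes 19.9%, 40.7% and 47.4% were called in either direction in A431, CAL27 and SCC13 tumors, larger shares than in this list. TIMP1, an inhibitor of matrix metalloproteinases, fell in A431 (-0.89) and SCC13 tumors (-1.65), where its relative TIMP3 rose (1.96). IGFBP6, a secreted binder of insulin-like growth factors, fell in A431 tumors (-0.64). INHBA, the inhibin beta A chain of activin, rose in CAL27 (1.35) and SCC13 tumors (2.72). Of the chains of laminin-332 in CAL27 tumors, LAMA3 fell (-1.26) and LAMB3 rose (0.82) relative to the median gene. The column medians of these tumors lay between -1.50 and -0.56 relative to the non-targeting guides. The median of the list was 0.15, 0.16 and 0.10 log units in A431, CAL27 and SCC13 tumors, where the 5 genes had 0.01, -0.18 and 0.19 and all genes 0.02, 0.01 and -0.02. In culture LGALS1, which encodes galectin-1, rose in A431 (0.64), 0 of 18 fell in A431, and 0 of 18 were called in CAL27. Among all genes 13.5% were called in A431 culture and 23.5% in CAL27 culture.

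Of 10 matrix receptors and their partners, which include the integrin subunits these proteins bind, 4 fell and 2 rose in A431 tumors, and 3 fell and 3 rose in CAL27 and in SCC13 tumors, while 0 were called in either culture. The shares of all genes called were 19.9%, 40.7% and 47.4% in A431, CAL27 and SCC13 tumors, and 13.5% and 23.5% in A431 and CAL27 culture. Since this list too was chosen with earlier results known, a larger share in it can come from that choice. ITGB1, the beta 1 integrin chain, fell in all 3 lines, with means of -2.26, -3.67 and -2.73 log units in A431, CAL27 and SCC13 tumors, and the lowest means of the 5 matrix genes there were -0.57, -0.74 and -0.23. FERMT1, the gene of kindlin-1, an activator of integrins, fell to -1.99 in A431, -4.14 in CAL27 and -1.88 in SCC13 tumors, and ITGAV, which pairs with several beta chains, fell to -1.15 in A431 tumors. FHL2, which encodes a LIM-domain adaptor protein, rose in A431 (0.59), CAL27 (1.70) and SCC13 tumors (2.29), and ITGB4 rose in CAL27 (1.59) and SCC13 tumors (2.42). Of 3 TGF-beta and Hippo pathway genes, CDKN2B, ID2 and INHBA, 0 fell in any tumor table and 0 were called in A431 tumors, and CDKN2B and INHBA rose in CAL27 and SCC13 tumors. CDKN2B, which encodes the cell cycle inhibitor p15, rose by 1.45 in CAL27 and by 7.72 in SCC13. ID2 rose in CAL27 culture (0.45), and 0 of the 3 were called in A431 culture. INHBA is counted in this list and among the secreted proteins.

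The 5 genes were weakly correlated with each other. Over the 38 columns, each divided by its SD over genes, the Pearson correlation between 2 of them lay between -0.11 for ECM1 with TGFBI and 0.29 for DCN with SPARC. The genes most like CYR61 were JUND (r = 0.49), CDKN2B (0.40) and VIM (0.39). For DCN they were RFX5 (0.54), FERMT1 (0.49) and PERP (0.47), for ECM1 MT1X (0.42), H2AFZ (0.42) and TCN1 (0.41), for SPARC KLF6 (0.51), ASPM (0.45) and LGALS7 (0.40), and for TGFBI S100A16 (0.55), TIMP3 (0.41) and MPZL2 (0.40). The correlation of DCN with FERMT1 was 0.26 in the deviations from the table means. These are descriptions, since the columns of 1 table are all set against the same initial cells, and the highest correlation of any gene with another had a median of 0.53 over the 327 genes.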

How the data were processed

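Guide RNA abundance was sequenced from genomic DNA of 48 samples in 10 groups, of which 10 were initial samples. The submitters' processing notes name Bowtie2 as a tool. The sources used here give neither its version nor the genome build, the pseudocount, the log base or how guides were counted and summarised per gene. What the authors deposited is 5 tables of log fold changes per gene (unit: other, log units), per the labels and file layout, with the non-targeting row at 0 in all 38 columns. Per the series design the guide library was made for 334 genes with 136 non-targeting guides, and the tables hold 327 genes. They hold no read counts, so depth is unknown.

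Columns were centred on their median over genes. Each table was fitted with limma 3.58.1 in R 4.3.3 against 0. Tumors and culture, and the lines, were compared in joint fits, which assume 1 log base and guide summary for all tables. The fits were tested on simulated data. No test includes the error of the initial cells, to which every column is relative. Whether tumors came from the same mouse and cultures were kept apart is not stated in the labels, so p-values describe the spread among these samples, which may be technical. Fits were run over all genes for 11 comparisons. All 5 genes were always named, and of each list the 3 called genes with the smallest adjusted p per table, where there were that many, and the 3 genes with the highest Pearson correlation to each of the 5. A list gene named for 1 table is given in each other table that called it. A gene of the lists is not reported here and was left out of their counts and medians. The members and lists were chosen with earlier results of these data known. CYR61 was matched to its current symbol through the RefSeq synonyms of GRCh38.p14. Guide sequences were not used here. Alternatives were another centring, 2 other scales, a robust variance prior, shared values left out, another spread, exact tests and each column left out.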

Additional observations from a re-analysis of the deposited data

How the results depend on the processing

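The values of the 5 genes were recomputed 1025 times over the 11 comparisons. Of these, 994 kept their side of the threshold or, in 20 cases with 1 of 2 cultures left out, had no test, 11 lost a call, 13 gained one and 7 were called with the sign opposite to an uncalled median-centred value. In 65 of the 994 the sign changed with no call on either side. Centring on the non-targeting guides turned DCN to -1.43 and TGFBI to -1.20 in SCC13 tumors, and CYR61 to -0.39, DCN to -0.24, ECM1 to -0.45, SPARC to -0.41 and TGFBI to -0.31 in CAL27 culture. With it 3 of the 5 were called in CAL27 tumors, 4 in SCC13 tumors and 5 in CAL27 culture, against 1, 1 and 0 with the median. Over all genes the split of lower and higher calls moved with it to 73 and 7 in A431 tumors (39 and 26 with the median), 164 and 18 in CAL27 tumors (72 and 61), 220 and 13 in SCC13 tumors (78 and 77), 136 and 1 in A431 culture (37 and 7), 293 and 0 in CAL27 culture (61 and 16) and 121 and 5 for SCC13 against A431 tumors (35 and 34). The sign-flip test called 0 of the 5 in A431 tumors (0 of all genes) and 0 in CAL27 tumors (119 of all genes), and with 2 cultures it cannot call any gene. The rank percentile called 2 of the 5 in CAL27 culture, where it called 91 genes lower and 64 higher, 1 for A431 tumors against culture (4 and 4) and 1 for SCC13 against A431 tumors (21 and 20). An own spread per table called 1 each for tumors against culture in A431 and CAL27 and for SCC13 against A431 tumors. With 1 column left out, 0 to 1 of the 5 were called in A431 tumors and 1 to 2 in CAL27 tumors. The genes called in A431 tumors then numbered between 39 and 53, against 65 with all columns. Without value column 1, 4 or 7 they numbered 41, 39 and 41. Over the other settings the genes called ranged between 0 and 137 in A431 culture, 0 and 293 in CAL27 culture, 0 and 40 for A431 tumors against culture, 0 and 107 for CAL27 tumors against culture, 11 and 73 for CAL27 against A431 tumors, 41 and 126 for SCC13 against A431 tumors and 0 and 22 between the cultures. CYR61 had 0 bound values in SCC13 tumors, so leaving them out, chosen after seeing the data, could not move its mean of 1.72. Its limma adjusted p was then 0.00518. Over all genes 25 were called lower and 79 higher without the bound values, against 78 and 77 with them. The cause of these moves was not tested. No paired analysis was possible because the value columns carry no replicate numbers. The number of tumors and the 2 cultures per line limit the precision, and depth is unknown.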
